A study of Sus scrofa with 32 samples.

Results

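Oxidative phosphorylation is carried out by 5 complexes of the inner mitochondrial membrane, and the genes examined here encode their subunits and the factors that assemble them. Members were all pig symbols that start with NDUF, SDHA to SDHD, UQCR, COX or ATP5, plus the 13 protein genes of the mitochondrial genome. This gave 69 genes, 56 nuclear and 13 mitochondrial, of 25322 gene identifiers in the count files, of which 11804 carried a symbol. Of the members, 54 encode subunits and 12 encode assembly factors. The others were ATP5IF1, which encodes the inhibitor of the ATP synthase, NDUFA4L2, a paralog of the subunit gene NDUFA4, and COX7A2L, which encodes a factor that joins complexes III and IV. The nuclear subunits covered complex I with 20 genes, complex II with 4, complex III with 6, complex IV with 6 and complex V with 5.

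The data were RNA-seq read counts from the testis of 32 male crossbred pigs of the Duroc and Landrace/Yorkshire breeds, slaughtered at about 100 kg, with 1 library per pig. The submitters sorted pigs by androstenone and skatole, the 2 compounds behind boar taint, into groups that they named High AS and Low AS. In the last 3 days of life some pigs had 15% chicory added to the feed and the others, called controls, did not. The High AS group comprised 10 control and 7 chicory pigs, and the Low AS group 7 control and 7 chicory pigs. A further chicory pig carried no AS label and was left out of all fits. The 32 pigs came from 14 sows, so litter mates entered as separate replicates, and 7 sows had pigs in both AS groups. Age at slaughter was not given in the sources used here.

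Complexes I to IV pass electrons from NADH and succinate to oxygen and pump protons, and complex V, the ATP synthase, uses the resulting gradient to make ATP. Complex II is encoded wholly in the nucleus, whereas the other complexes are mosaics of both genomes. The mitochondrial genes are read from both strands as long polycistronic transcripts that are cut into single mRNAs, and ND6 lies on the opposite strand to the other 12. In the testis, spermatogonia and Sertoli cells rely largely on glycolysis, spermatocytes and spermatids depend more on oxidative phosphorylation, and Leydig cells need mitochondria for the first step of steroid synthesis. Several complex IV subunits have testis isoforms that replace the widespread form in male germ cells.

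Library names divided the pigs into 8 numbered and 24 plain libraries. Gene counts were 10585625 to 20349500 per numbered library and 1855174 to 5993637 per plain library, so a threshold of 8000000 counts gives the same division, which is called library set here. Depth, name style and first index sequence change together between the sets and cannot be told apart. All plain libraries and 4 numbered libraries were from lane 6, and the other 4 numbered libraries were from lane 7. Numbered libraries came from 3 High AS control, 3 High AS chicory and 2 Low AS control pigs and from no Low AS chicory pig. All 69 members had at least 1 count somewhere, and each library detected 67 to 69 of them. The median count of a nuclear member was 151 to 420 in plain and 524.5 to 921.5 in numbered libraries.

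One library stood apart from the rest before any comparison. Low AS chicory replicate 1, a plain library, was the shallowest and had the largest share of reads outside annotated genes, 39.6%. Its summed level of 15 elongating spermatid markers was 3823 CPM (CPM being counts scaled to a common library size), and the next lowest library had 15897 CPM. Its round spermatid markers summed to 1615 CPM against at least 3170 CPM in the other libraries, and its spermatogonia markers to 180 CPM against at most 55.4 CPM. Most results that rest on it are given with and without it, and estimates for marker lists only with it.

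The share of gene counts taken by the 13 mitochondrial genes ranged from 1.56% to 17.5% over the 32 pigs, with a median of 3.30%. In the 8 numbered libraries the lowest share was 5.41%, the median 7.33% and the highest 15.8%. In the 24 plain libraries the lowest was 1.56%, the median 2.59% and the highest 17.5%. The highest plain value belonged to Low AS chicory replicate 1, and no other plain library exceeded 5.23%, so that without it the sets did not overlap.

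The nuclear members moved the other way. Together they took 0.347% to 0.466% of gene counts in the numbered libraries, with a median of 0.393%. In the plain libraries they took 0.470% to 0.771%, with a median of 0.573%. Every numbered library was below every plain library. Counts of mitochondrial genes per count of nuclear members were 15.6 at the lowest, 19.5 at the median and 35.2 at the highest in the numbered libraries. In the plain libraries the same ratio was 2.37 at the lowest, 4.80 at the median and 24.6 at the highest, and at most 9.89 without Low AS chicory replicate 1.

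**Figure D1:**
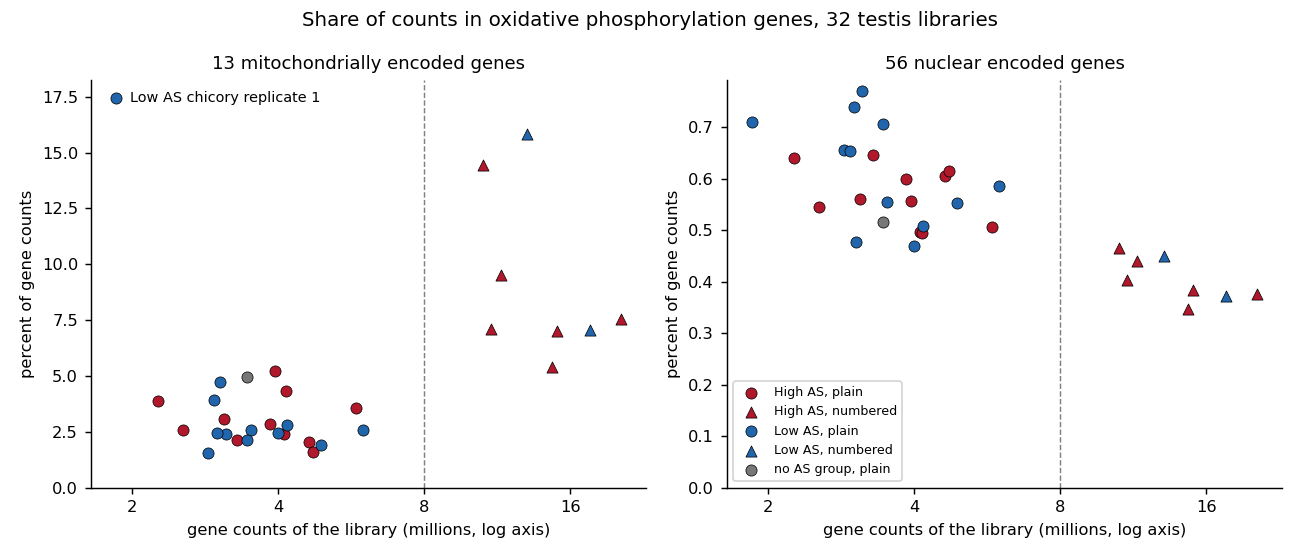
Share of gene counts from the 13 mitochondrial and from the 56 nuclear members, each against the gene counts of the library on a log axis, 1 point per pig (32 pigs), with the library set given by the symbol and the AS group by the colour. The numbered libraries lie to the right of the line at 8000000 counts, at 5.41% to 15.8% for the mitochondrial share and at or below 0.466% for the nuclear share.

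Within the plain libraries depth varied more than 2-fold, with nearly equal mitochondrial shares in the shallower and deeper libraries. Leaving out Low AS chicory replicate 1, the 12 shallower plain libraries had a median mitochondrial share of 2.58% (1.56% to 4.94%) and the 11 deeper ones 2.59% (1.62% to 5.23%). The nuclear share had medians of 0.643% in the shallower and 0.554% in the deeper libraries. The ratio of mitochondrial to nuclear counts had medians of 4.68 and 4.80. The large difference in mitochondrial share thus lay between the library sets. This is a description without a test.

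First index and lane gave a further view. The plain libraries carried 3 first indices, with 8 libraries each, and their median mitochondrial shares were 2.84%, 2.48% and 2.46%. The numbered libraries shared a 4th first index. Their 4 libraries of lane 6 had shares of 5.41% to 15.8% (median 7.02%) and the 4 of lane 7 had 7.11% to 14.4% (median 8.54%), so the high shares were present in both lanes.

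To compare the library sets gene by gene, numbered and plain libraries of 31 pigs were compared in a model with AS group and diet, using edgeR's quasi-likelihood test with Benjamini-Hochberg adjustment at 0.05. Of 13025 genes tested, 3794 (29.1%) passed the threshold, 13.4% higher and 15.7% lower in the numbered libraries, and the median log2 fold of all genes was -0.02. Of the members, 68 were tested. COX10, which encodes a heme A synthesis enzyme, was not, since it had 0 counts in 22 pigs and at most 2 counts in any. Against this background 12 of the 13 mitochondrial genes (92.3%) were higher in the numbered libraries and none was lower, with a median log2 fold of 1.53. Of the 55 nuclear members tested, 26 (47.3%) were lower and 1 was higher, with a median of -0.38. In bulk tissue, fewer cells of a type and less RNA per cell cannot be told apart.

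Among the mitochondrial genes of complex I, ND4L (ENSSSCG00000018086) showed the largest difference. Its level was 230 CPM at the lowest, 343 at the median and 914 at the highest in the numbered libraries, and 21.4, 56.3 and 207 CPM in the 23 plain libraries of the fit. No numbered library fell within the range of the plain ones. The log2 fold was 2.43 (SE 0.28, adjusted p = 5.6e-07, edgeR quasi-likelihood), and 2.50 without Low AS chicory replicate 1. ND4L encodes a small membrane subunit, and its reading frame overlaps that of ND4, so reads over the overlap can be lost or shared in counting.

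ND4 and ND5 encode large proton-pumping subunits of the membrane arm. ND4 was at 2545, 3556 and 9755 CPM (lowest, median and highest) in the numbered libraries and at 477, 947 and 4874 CPM in the plain ones. Its log2 fold was 1.91 (SE 0.32, adjusted p = 6.47e-05, edgeR quasi-likelihood). ND5 was at 1682, 2753 and 4866 CPM against 330, 630 and 3719 CPM, a log2 fold of 1.83 (SE 0.32, adjusted p = 9.89e-05, edgeR quasi-likelihood). For both genes the overlap between the sets came from 1 plain library, Low AS chicory replicate 1. The other subunit genes of the same arm, ND1, ND2 and ND3, had log2 folds of 1.37, 1.53 and 1.41 and also passed the threshold.

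ND6, the gene on the opposite strand, was the 1 mitochondrial gene that did not pass. It was at 25.98, 89.2 and 178 CPM in the numbered libraries and at 23.8, 59.8 and 588 CPM in the plain ones, and the ranges overlapped throughout. The log2 fold was 0.55 (SE 0.39, adjusted p = 0.303, edgeR quasi-likelihood). Without Low AS chicory replicate 1 it was 0.68 and passed the threshold, as it did with DESeq2. The sources used here do not state whether counting used strand, so the reads of ND6 and those of genes opposite it may not be separated.

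CYTB encodes the electron-carrying cytochrome b of complex III. Its lowest, median and highest levels were 3392, 6573 and 13398 CPM in the numbered and 1075, 1903 and 11391 CPM in the plain libraries. The medians differed more than 3-fold, and the log2 fold was 1.57 (SE 0.32, adjusted p = 0.000565, edgeR quasi-likelihood).

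COX1, COX2 and COX3 encode the catalytic core of complex IV, which reduces oxygen to water. COX1 (ENSSSCG00000018075) was at 22125, 30455 and 61886 CPM in the numbered libraries. In the plain libraries it was at 5880, 9849 and 62703 CPM, the last again in Low AS chicory replicate 1, and without that library the highest plain value was 18235 CPM. The log2 fold of COX1 was 1.64 (SE 0.29, adjusted p = 0.000105, edgeR quasi-likelihood). COX2 and COX3 were higher by 1.62 and 1.42 on the log2 scale.

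Of the complex V genes, ATP6 encodes the subunit that forms the proton path of the ATP synthase and ATP8 a small subunit beside it, and their reading frames overlap. ATP6 was at 2686, 4789 and 10556 CPM in the numbered and at 962, 1522 and 10234 CPM in the plain libraries, a log2 fold of 1.53. ATP8 was at 116, 354 and 685 CPM against 62.9, 106 and 534 CPM, a log2 fold of 1.31 (adjusted p = 0.00195, edgeR quasi-likelihood). Every complex with mitochondrial genes was thus represented among the genes that were higher.

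**Figure D2:**
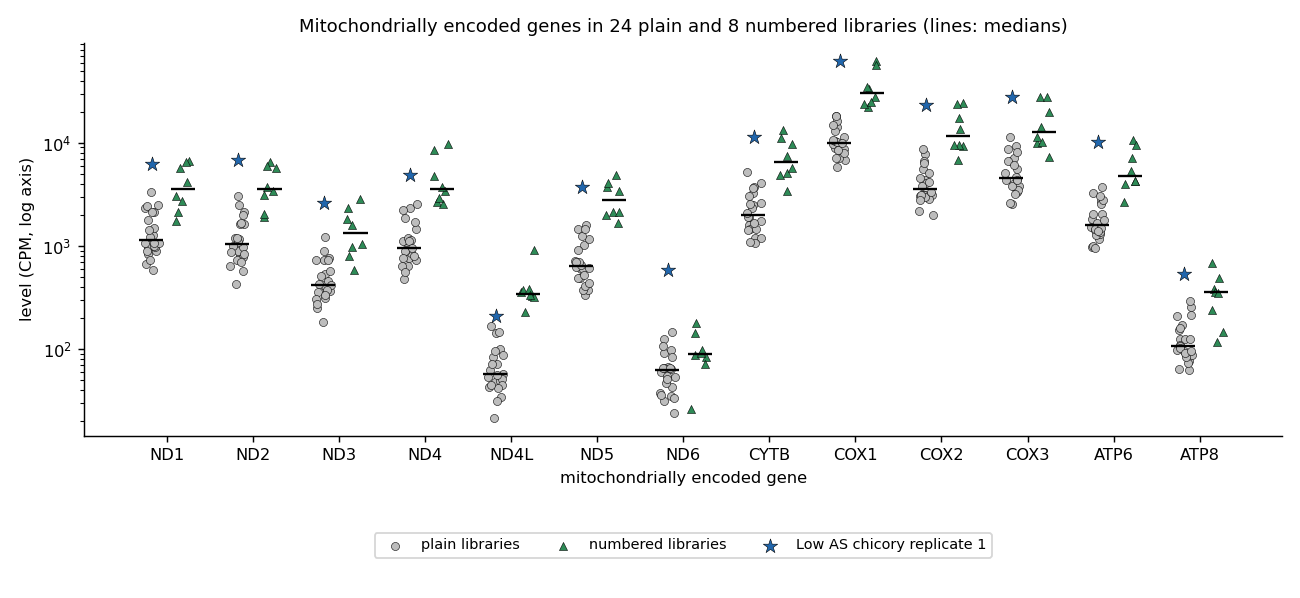
Level of each of the 13 mitochondrial genes in CPM on a log axis, 1 point per pig (32 pigs), with numbered and plain libraries marked and Low AS chicory replicate 1 picked out. The median of the numbered libraries is above that of the plain ones for each gene, ND4L is without overlap of the ranges, and the numbered ND6 values lie within the plain range.

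The nuclear subunits of complex I form its NADH-oxidising arm and the outer shell of its membrane arm. Of 20, 10 were lower in the numbered libraries and none was higher, with a median log2 fold of -0.50. NDUFB5, an accessory subunit of the membrane arm, was at 29.1, 32.2 and 40.7 CPM in the numbered and at 38.1, 55.9 and 97.9 CPM in the plain libraries. The sets overlapped only between 38.1 and 40.7 CPM, and the log2 fold was -0.82 (SE 0.14, adjusted p = 8.31e-05, edgeR quasi-likelihood). NDUFV1, the core subunit that binds NADH, was at 34.1, 39.8 and 55.6 CPM against 53.0, 61.3 and 83.7 CPM. Its log2 fold was -0.56, and the accessory subunit genes NDUFA2, NDUFA11, NDUFA8 and NDUFA9 had log2 folds of -0.78, -0.74, -0.56 and -0.48.

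Complex I also held members that did not pass. NDUFS1, which encodes the largest core subunit, had a log2 fold of -0.34 and did not pass the threshold. NDUFAB1, which encodes the mitochondrial acyl carrier protein, was at 41.6, 59.0 and 72.2 CPM in the numbered and 31.1, 52.3 and 73.7 CPM in the plain libraries, with a log2 fold of 0.17. NDUFA10 had a log2 fold of 0.06 and overlapped fully. Of the 20 nuclear subunit estimates of complex I, 18 were below 0. The 2 above 0 were those of NDUFAB1 and NDUFA10, and neither passed.

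Complex II, succinate dehydrogenase, links the citric acid cycle to the respiratory chain. SDHA, the flavoprotein that oxidises succinate, was at 54.1, 64.1 and 92.7 CPM in the numbered libraries and at 83.2, 104 and 192 CPM in the plain ones. Its log2 fold was -0.72 (SE 0.13, adjusted p = 0.00021, edgeR quasi-likelihood). SDHB, the iron-sulfur subunit, was at 81.5, 93.0 and 114 CPM against 95.5, 115 and 159 CPM. Its log2 fold of -0.29 passed narrowly (adjusted p = 0.0465, edgeR quasi-likelihood). The call was lost under 8 of the alternative settings and in 17 of the fits that left out a single pig. SDHA and SDHB were the 2 of 4 subunits of complex II that were lower, and the complex has no mitochondrial gene to set them against.

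In complex III, 5 of 6 nuclear subunits were lower, with a median log2 fold of -0.55. UQCRC1 (ENSSSCG00000011356), a core subunit, was at 113, 143 and 159 CPM in the numbered libraries and at 173, 226 and 354 CPM in the plain ones. The ranges did not overlap, and the log2 fold was -0.76 (SE 0.13, adjusted p = 8.27e-05, edgeR quasi-likelihood). UQCR11, UQCRC2, UQCR10 and UQCRQ had log2 folds of -0.77, -0.57, -0.52 and -0.38. With sow as a block UQCR11, UQCR10 and UQCRQ no longer passed, with log2 folds of -0.49, -0.36 and -0.25, and without lane 7 UQCRC2, UQCR10 and UQCRQ did not. The exception was UQCRFS1, the Rieske iron-sulfur protein, at 74.0, 87.6 and 117 CPM against 68.9, 89.4 and 136 CPM, with a log2 fold of -0.02 whose sign changed under 3 alternatives.

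In complex IV, 4 of 6 nuclear subunits were lower, with a median of -0.56. COX5B (ENSSSCG00000008195), a zinc-binding subunit, was at 106, 146 and 178 CPM in the numbered and 196, 260 and 341 CPM in the plain libraries. It had no overlap between sets and a log2 fold of -0.82 (SE 0.12, adjusted p = 1.51e-05, edgeR quasi-likelihood). COX4I1, the widespread form of the subunit that takes part in regulation by ATP, was at 185, 238 and 415 CPM against 274, 395 and 458 CPM, a log2 fold of -0.46. COX7A2 and NDUFA4 had log2 folds of -0.69 and -0.66. COX5A and COX8A did not pass, with log2 folds of 0.03 and -0.18.

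In complex V, 3 of 5 nuclear subunits were lower, with a median of -0.49. ATP5MC1 and ATP5MC3, which both encode the c subunit of the rotor ring, had log2 folds of -0.69 and -0.66, and ATP5PO, the stalk subunit, -0.49. With sow as a block ATP5MC1 and ATP5MC3 no longer passed, at -0.44 and -0.28, and without lane 7 ATP5PO did not, at -0.46. ATP5F1A, the alpha subunit of the catalytic head, was at 219, 271 and 385 CPM in the numbered and 239, 336 and 755 CPM in the plain libraries and did not pass (log2 fold -0.37, adjusted p = 0.0689, edgeR quasi-likelihood), but it passed without Low AS chicory replicate 1, without High AS control replicate 3 or without High AS control replicate 10, at -0.34, -0.46 and -0.40. ATP5IF1, whose product blocks reverse action of the synthase, was lower, at 30.6, 44.8 and 53.4 CPM against 42.4, 77.6 and 104 CPM (log2 fold -0.84, SE 0.15, adjusted p = 9.06e-05, edgeR quasi-likelihood).

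Assembly factors help to build the complexes but are not part of them. Of 11 tested, 1 (9.09%) was lower and 1 higher, beside 15.7% of all genes lower and 13.4% higher. Their median log2 fold was -0.22. Of 41 nuclear subunits 24 (58.5%) were lower, with a median of -0.49. Some factors had low counts, such as COX18 with 5 to 88 per pig, which limits calls. The difference between assembly factors and subunits was not tested. The factor that was lower was COX17, a copper chaperone for complex IV, at 9.85, 16.7 and 19.8 CPM in the numbered and 14.7, 24.7 and 55.8 CPM in the plain libraries (log2 fold -0.72). NDUFAF7, a mitochondrial methyltransferase, was the single nuclear member that was higher, at 78.2, 96.2 and 124 CPM against 25.4, 66.8 and 110 CPM (log2 fold 0.52, SE 0.17, adjusted p = 0.0187, edgeR quasi-likelihood), and its adjusted p was 0.0812 without Low AS control replicate 7 and 0.250 with sow as a block.

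**Figure D3:**
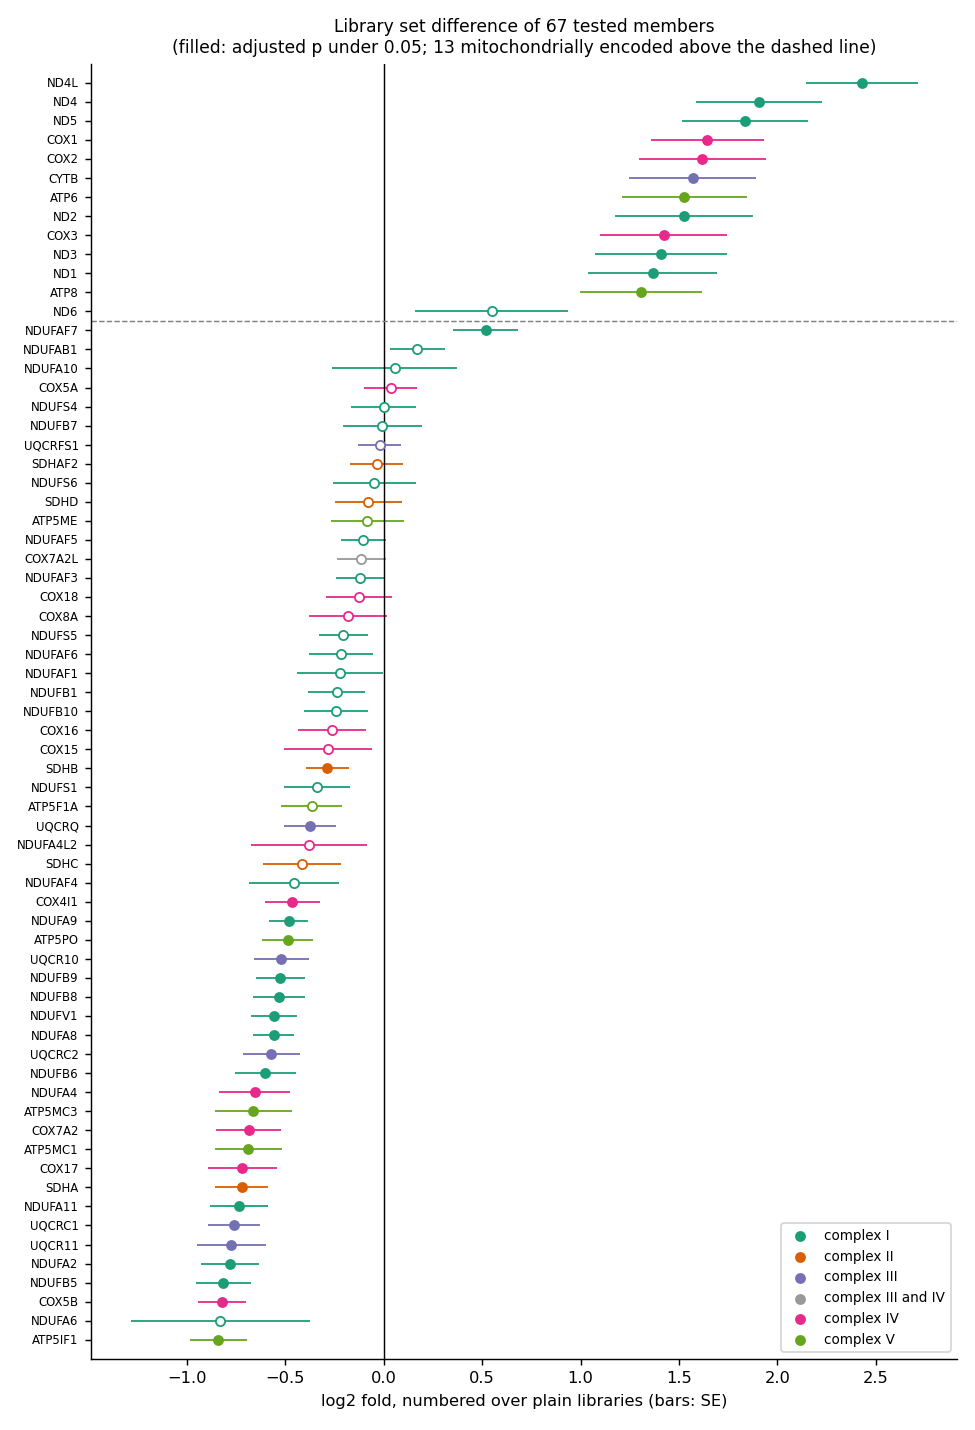
Log2 fold of numbered over plain libraries for 67 of the 68 tested members, coloured by complex, with the mitochondrial genes above the dashed line, bars for 1 SE and filled points for genes past the adjusted threshold. All 13 mitochondrial estimates lie above 0, with a median of 1.53, and most nuclear estimates lie below 0, 51 of the 55 that were tested.

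Groups without overlap were counted across all genes. Every numbered library was above every plain library for 0.392% of genes tested and below for 0.253%. Among the members ND4L was above, and UQCRC1 and COX5B were below. Without Low AS chicory replicate 1 the shares were 0.66% and 0.468%, and ND4, ND5 and COX1 joined the members above.

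Calls were lost both when a lane was left out and when a sow term was added. Leaving out the 4 lane 7 libraries left 8 of 13 mitochondrial genes higher (median log2 fold 1.36) and 19 of 55 nuclear members lower, beside 8.18% of all genes higher and 4.95% lower. With sow as a block all 13 mitochondrial genes were higher (median 2.03) and 15 of 55 nuclear members were lower (median -0.23), beside 8.66% and 8.3% of all genes. In the fit with sow 12 members lost their call, among them COX17, COX4I1, NDUFA4, NDUFB6, SDHB and NDUFAF7. Leaving out each pig in turn left 12 or 13 mitochondrial genes higher and 24 to 28 nuclear members lower.

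Other genes of mitochondrial energy supply were counted from lists, to be read beside the 13.4% of all genes that were higher and the 15.7% that were lower. Of 20 citric acid cycle genes 7 were lower in the numbered libraries and none higher, among them IDH3B, a subunit of isocitrate dehydrogenase, and MDH1, the cytosolic malate dehydrogenase, with log2 folds of -0.79 and -0.69. Of 13 genes for cytochrome c, electron transfer flavoprotein and coenzyme Q, 6 were lower, including COQ2, which makes the coenzyme Q precursor, at -0.70. Of 14 other respiratory assembly genes 5 were lower and 1 was higher, TTC19, a complex III factor, at 0.69.

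Genes that copy, transcribe or translate the mitochondrial genome were called about as often as all genes (13.4% higher and 15.7% lower). Of 22 tested, 3 were higher in the numbered libraries: POLG, the mitochondrial DNA polymerase, MTERF1, a transcription terminator, and SUPV3L1, an RNA helicase, with log2 folds of 0.46, 0.42 and 0.30. Another 4 were lower, led by GFM1, a translation elongation factor, at -0.59. Of 12 germ cell energy enzymes 3 were lower, with VDAC3, an outer membrane channel, at -0.81. The medians of these 5 lists ran from -0.41 for cytochrome c and coenzyme Q to -0.11 for upkeep of the mitochondrial genome. None of their genes passed in the comparisons of AS group, androstenone, diet or their interaction.

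Markers of Leydig, peritubular and Sertoli cells passed for library set more often than all genes did. Leydig cell markers were lower for 6 of 10 genes with a median log2 fold of -1.04, and their sum was 933 to 3463 CPM (median 1989) in the numbered and 1448 to 8481 CPM (median 3512) in the plain libraries. Markers of peritubular and smooth muscle cells were higher for 5 of 8 genes with a median of 0.90, and their sum was 218 to 379 CPM against 87.7 to 344 CPM. Among Sertoli cell markers 4 of 11 were lower and 1 higher, with log2 folds of -1.89 to 2.92 and a median of -0.01. Their sums were 954 to 2319 against 1544 to 6835 CPM. Elongating spermatid markers, with 1 of 15 higher and 1 lower, summed to 29069 to 49243 CPM against 3823 to 69118 CPM. Of the other lists, 3 of 14 round spermatid markers and 1 of 6 spermatogonia markers were lower, 2 of 18 spermatocyte markers were higher and 3 lower, 1 of 6 endothelial markers was higher, and 0 of 4 macrophage and leukocyte markers passed. Most of these other counts, and those of elongating spermatids, lie near the shares of all genes, 13.4% higher and 15.7% lower. No marker that had an identifier was at 0 in all libraries. Some listed markers had no identifier and could not be checked, such as 3 of 13 Leydig cell markers, of which 10 had one. The part of these lists in the differences of the members was not tested.

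The testis isoforms of complex IV could be followed only in part. COX6B2, COX7B2 and COX8C had no identifier under their symbols and were not analysed here, and of 7 planned isoform pairs 1 had both symbols, NDUFA4L2 with NDUFA4. NDUFA4L2 is known as a hypoxia-induced paralog and was at 0 to 6.18 CPM, with 0 counts in Low AS control replicate 4. The log2 ratio of NDUFA4L2 to NDUFA4, with 0.5 CPM added to each, was -4.67 ± 0.80 (SD, n = 17) in High AS and -5.10 ± 0.76 (SD, n = 14) in Low AS pigs, and these spreads overlap. Stratified two-sided permutation tests with 100000 resamples used only strata that held both groups. They covered 28 pigs for AS group, 29 for diet and 24 for library set. The stratum-weighted differences in these permutation tests were 0.34 between AS groups (adjusted p = 0.431), 0.19 between diets (adjusted p = 0.545) and 0.42 between library sets (adjusted p = 0.431). Adjustment was over these 3 tests.

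COX8A is the widespread form of the subunit whose testis partner was missing, and it was followed against elongating spermatid markers. In the 23 plain libraries the correlation of log2 levels was r = 0.01 (permutation p = 0.887) and rho = 0.33 (permutation p = 0.124). Leaving out the 2 libraries farthest from the median of the markers, Low AS chicory replicate 1 and Low AS control replicate 5, gave r = 0.70, so the pooled value rests on those libraries. In the 8 numbered libraries r was 0.54 (exact permutation p = 0.165) and rho 0.55 (exact permutation p = 0.171), and r was -0.28 without the 2 farthest. Over these 2 relations the adjusted p-values of r were 0.887 and 0.33.

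The AS comparison asked whether pigs with High AS and Low AS differed in these genes. No member passed the threshold. Of 13025 genes tested 0 (0%) passed with edgeR's quasi-likelihood test, 300 had an unadjusted p under 0.05, and DESeq2 and limma voom also called 0. The median log2 fold of High AS over Low AS was -0.22 for the mitochondrial genes, with 0 of 13 estimates above 0, and -0.09 for the nuclear members, with 12 of 55 above 0, beside 0.01 for all genes.

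The sign of the mitochondrial median depended on 1 library. Without Low AS chicory replicate 1 it was 0.14, with 9 of 13 estimates above 0. With that library kept but no library set term it was 0.12. Within the plain libraries, that library included, it was -0.18. Within the numbered libraries it was -0.21, with only 2 Low AS libraries, at mitochondrial shares of 7.04% and 15.8%. The mitochondrial share itself was 1.62% to 5.23% (median 2.88%) in 11 plain High AS libraries and 1.56% to 4.72% (median 2.47%) in 11 plain Low AS libraries without Low AS chicory replicate 1, ranges that overlap almost fully.

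UQCR11, a small subunit of complex III, was the 1 member with an unadjusted p under 0.05 in the AS comparison. It was at 8.41, 18.3 and 28.9 CPM (lowest, median and highest) in High AS and at 14.1, 24.6 and 56.3 CPM in Low AS pigs. The groups overlapped between 14.1 and 28.9 CPM, and the highest Low AS value was that of Low AS chicory replicate 1. The log2 fold was -0.35 (SE 0.15, p = 0.0289, adjusted p = 0.988, edgeR quasi-likelihood), or -0.26 without Low AS chicory replicate 1. The members next to it were NDUFS6 and COX1, with log2 folds of -0.33 and -0.45, or -0.22 and -0.07 without Low AS chicory replicate 1. On the other side NDUFA6, NDUFA4L2 and NDUFA10 had 0.41, 0.25 and 0.23, or 0.41, 0.28 and 0.19 without it. NDUFA6 was at 0.22 without Low AS control replicate 7 and at 0.85 without Low AS control replicate 3. Leydig cell markers had 8 of 10 estimates above 0 with a median of 0.44, and 0 passed. Elongating spermatid markers had 15 of 15 estimates above 0 with a median of 0.22, and 0 passed. Their summed level had medians of 37278 CPM in High AS and 37241 CPM in Low AS pigs. Without Low AS chicory replicate 1 the Low AS median was 37699 CPM, and the marker estimates were made only with that library included. The part of either marker list in the estimates of the members was not tested.

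Androstenone was given for all 31 pigs of the fits, at 0.67 to 7.77 mg/kg (median 1.8) in High AS and 0 to 1.07 mg/kg (median 0.54) in Low AS pigs. The slope is the log2 change for each doubling of androstenone, with 0.5 mg/kg added to every concentration. Of 13199 genes tested 3 (0.0227%) passed with edgeR's quasi-likelihood test, 668 had an unadjusted p under 0.05, DESeq2 called 7 and limma voom 2, and none of edgeR's 3 was a member. The median slope was 0.11 for the mitochondrial genes, 11 of 13 being positive, and 0.00 for the nuclear members, 26 of 55 being positive. Leydig cell markers had 9 of 10 positive slopes (median 0.25), of which SRD5A1, a steroid 5-alpha-reductase, passed. Elongating spermatid markers had 15 of 15 positive slopes (median 0.14), and the part of either list in the slopes of the members was not tested. Both lists were fitted only with Low AS chicory replicate 1 included.

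ND1 had the largest positive mitochondrial slope, 0.23 per doubling (SE 0.15, p = 0.132, adjusted p = 0.852, edgeR quasi-likelihood). ND1 was at 665, 1776 and 6549 CPM in High AS and at 579, 1060 and 6694 CPM in Low AS pigs, with nearly the same range in both. Without Low AS chicory replicate 1 all 13 slopes were positive with a median of 0.22. The slope of ND1 was then 0.33 (SE 0.10, p = 0.00211, adjusted p = 0.682, edgeR quasi-likelihood) and that of ND2 0.32. An unadjusted p under 0.05 was found for 9 of the 13 genes, beside 836 of all 13141 genes tested, and none of the 13 passed. The 13 genes are cut from shared transcripts, so their values are not independent. With sow as a block the median was 0.00, with 6 of 13 slopes positive. Among the nuclear members NDUFB5, NDUFAF4 (a complex I assembly factor) and NDUFS1 had the negative slopes with the smallest p, -0.11, -0.16 and -0.11, and UQCR10 the positive one, 0.07.

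The diet comparison asked whether 3 days of chicory went with other levels of these genes. Of 13025 genes 1 (0.00768%) passed with edgeR's quasi-likelihood test, 114 had an unadjusted p under 0.05, DESeq2 called 1 and limma voom 0, and no member passed. The median log2 fold of chicory over control was -0.05 for the mitochondrial genes, with 5 of 13 above 0, and 0.01 for the nuclear members, with 30 of 55 above 0. Without Low AS chicory replicate 1 the mitochondrial median was -0.39 with 0 of 13 above 0. An unadjusted p under 0.05 was then found for 4 of these genes, beside 174 of all 12971 genes tested. Within the plain libraries, with Low AS chicory replicate 1 still among them, it was 0.12. Within the numbered libraries, which do not hold that library, it was -0.41. The sign was not stable over these fits.

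ND6 had the largest diet estimate, and it came from 1 library. It was at 25.98, 65.6 and 588 CPM on chicory and at 23.8, 65.4 and 178 CPM on the control diet, and the medians were nearly equal. The log2 fold was 0.50 (SE 0.36, adjusted p = 1.00, edgeR quasi-likelihood) and -0.01 without Low AS chicory replicate 1. COX15, which completes heme A for complex IV, was at 1.81, 5.63 and 10.5 CPM on chicory and at 3.72, 6.69 and 14.03 CPM on the control diet, a log2 fold of -0.23 that did not pass. SDHAF2, which loads flavin onto SDHA, COX5A, COX16 and NDUFA2 had log2 folds of 0.14, 0.11, -0.14 and -0.11.

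The interaction of AS group and diet was estimated over all 31 pigs, but no Low AS chicory library was numbered, so it could not be estimated within the numbered libraries. Of 13025 genes 0 (0%) passed with edgeR's quasi-likelihood test, 473 had an unadjusted p under 0.05, and DESeq2 and limma voom called 0. The median interaction of the mitochondrial genes was -0.62 on the log2 scale, with 1 of 13 above 0, and 0.27 without Low AS chicory replicate 1, with 12 of 13 above 0. The nuclear members had a median of -0.02, with 25 of 55 above 0, and a median of 0.05 without Low AS chicory replicate 1. Elongating spermatid markers had 15 of 15 interaction estimates above 0 (median 0.40) and Sertoli cell markers 1 of 11 (median -0.51), and their part was not tested. Both lists were fitted only with Low AS chicory replicate 1 included, whose sums were 3823 CPM for elongating spermatid and 6835 CPM for Sertoli cell markers. The nearest sums of other libraries were 15897 and 4716 CPM.

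**Figure D4:**
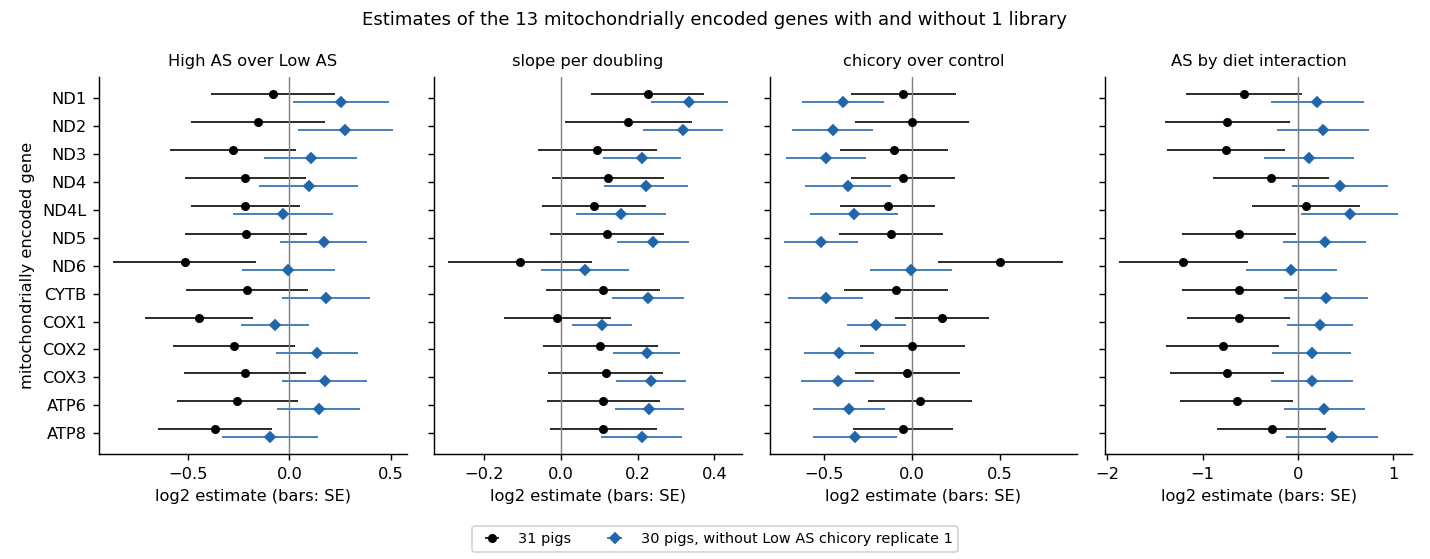
Estimates for the 13 mitochondrial genes on the log2 scale with bars for 1 SE, in 4 panels for High AS over Low AS, the slope per doubling of androstenone, chicory over control and the interaction, each over 31 pigs and over the 30 without Low AS chicory replicate 1. Most estimates shift upward in the AS, androstenone and interaction panels and downward in the diet panel when that library is left out, and no estimate passed the threshold.

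NDUFA10 (ENSSSCG00000016349), an accessory subunit of complex I related to deoxyribonucleoside kinases, was the nuclear member with the smallest p for the interaction. It was at 54.4, 120 and 280 CPM (lowest, median and highest) in High AS control pigs and at 88.0, 244 and 351 CPM in High AS chicory pigs. In Low AS pigs it was at 94.9, 163 and 400 CPM on the control diet and at 60.3, 96.1 and 222 CPM on chicory. The medians thus ran in opposite directions with diet in the AS groups, with overlap between all 4. The interaction was 1.54 on the log2 scale (SE 0.52, p = 0.00552, adjusted p = 0.951, edgeR quasi-likelihood) and 0.88 (SE 0.46) with sow as a block.

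Levels of NDUFA10 lay close together within some litters. The 3 pigs of sow 1014 were at 54.4, 60.3 and 75.8 CPM, and they came from High AS control and Low AS chicory pigs and from both library sets. The 3 pigs of sow 1139 were at 222, 241 and 241 CPM, again from both AS groups and both library sets. The pairs of sows 1134 and 1109 were at 94.9 and 96.1 CPM and at 163 and 181 CPM. Other litters were spread, as in sow 210, whose 5 pigs were at 78.5, 251, 330, 351 and 400 CPM. Litters were singled out after the values were seen, and no test was made.

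**Figure D5:**
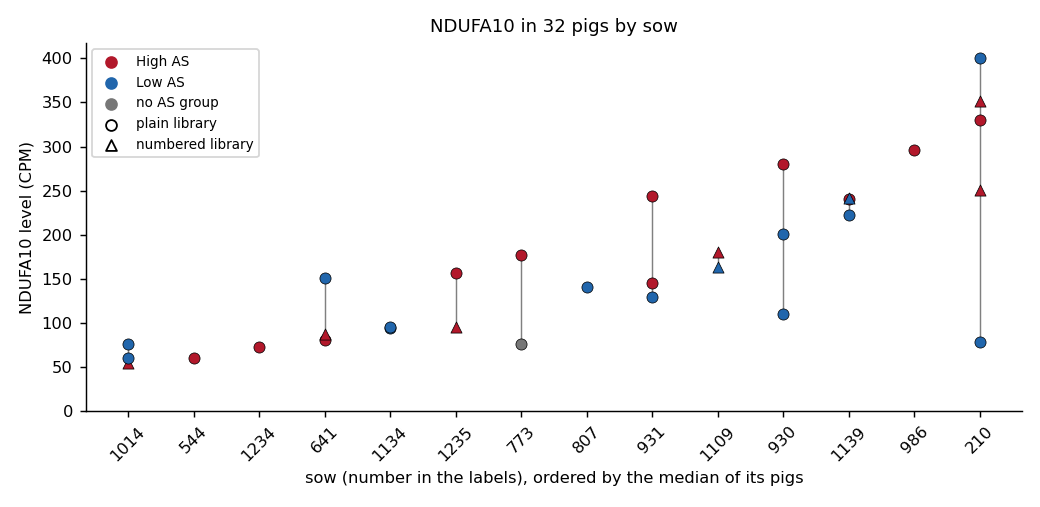
Level of NDUFA10 in CPM for each of the 32 pigs, arranged by sow (14 sows, in order of their medians) and marked by AS group and library set. The pigs of sow 1014 lie between 54.4 and 75.8 CPM and those of sow 1139 between 222 and 241 CPM, whereas sow 210 spans 78.5 to 400 CPM.

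Members differed in how much they varied between pigs. The SD of log2 CPM over 32 pigs was 0.92 to 1.33 for the mitochondrial genes (median 1.02) and 0.24 to 1.34 for the nuclear members (median 0.41). Within the plain libraries the medians were 0.81 and 0.35, and within the numbered libraries 0.68 and 0.28, so the wider spread of the mitochondrial genes was present inside each set. The plain values include Low AS chicory replicate 1, which widens them. For COX1 in plain Low AS libraries the SD was 15511 CPM with that library and 3252 CPM without it. The nuclear member with the widest spread was NDUFA6 (ENSSSCG00000000045), an accessory subunit of complex I, which had 0 counts in 3 pigs (Low AS control replicates 1 and 7 and High AS control replicate 10) and up to 17.0 CPM and 127 counts in others. Its library set difference of -0.83 (SE 0.46, adjusted p = 0.171, edgeR quasi-likelihood) was as large as that of COX5B but did not pass.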

How the data were processed

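Polyadenylated RNA of 32 pig testes was sequenced from 1 stranded mRNA library per pig, per the labels' protocols. The authors deposited whole-number read counts per Ensembl gene, with no normalization. Per the submitters' processing notes, the tools used include HTSeq 0.6.0, STAR, Trimmomatic 0.33, SAMtools 1.3.1 and cutadapt 1.8.1. The sources used here do not state a genome build, an annotation or a strand setting, and coordinates are not printed. Rows for reads in no gene stayed out of library sizes and tests. They held 20.6% to 39.6% of reads without a feature and 5.00% to 6.63% with several alignments, which can remove counts from genes with nuclear copies of mitochondrial sequence. Gene counts per library ranged from 1855174 to 20349500.

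Symbols were looked up by Ensembl identifier in a table of gene names. Groups and sows came from the labels. Replicate numbers follow accession order and pair no pigs, and p-values measure the spread between pigs, some of them litter mates. Tests used edgeR 4.0.16 in R 4.3.3 with filterByExpr, TMM scaling, glmQLFit and glmQLFTest, and Benjamini-Hochberg adjustment over all genes at 0.05. AS group, diet and library set were terms in each model, with log2 of androstenone plus 0.5 mg/kg in place of AS group for the slope. Each SE was taken as the log2 fold over the root of its F statistic. CPM used TMM library sizes. The code was tested on simulated counts. Alternatives were DESeq2 1.42.0, limma 3.58.1 voom, other scalings and filters, sow as a block, carcass weight, the library sets apart, lane 7 left out and each pig left out. In fits the plain set held 23 pigs. Permutation tests and figures used Python 3.11.15 with SciPy 1.17.1 and matplotlib 3.10.9.

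Named genes were the members past the threshold with the smallest p (at most 10 in each direction) or, where none passed, the 3 in each direction with the smallest p, plus the mitochondrial genes, isoform pairs and core subunits. Other members are named as examples, chosen after their values were seen. The values of 1 member are not reported here, though counts include it. Members and lists were chosen with earlier results of these data known. Sequences are not printed, as no sequence table was used here.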

Additional observations from a re-analysis of the deposited data

Results flagged for a closer look

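Within each of the 4 groups of AS and diet, a sample was listed when its gap to the nearest other sample was above Dixon's 95% critical value for the range of the group. Of 104 groups of values checked, 37 met this. The groups checked did not cover every nuclear member. Chance gives about 1 in 20 only for values of a single population. Every group but Low AS chicory mixed numbered and plain libraries, so gaps there can restate the library set difference. Members measured in the same library are also not independent.

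Low AS chicory replicate 1 accounted for 16. Its mitochondrial share was 17.5% and its ratio of mitochondrial to nuclear counts 24.6. Its complex I levels were 6213 CPM for ND1, 6871 for ND2, 2597 for ND3, 4874 for ND4, 207 for ND4L, 3719 for ND5 and 588 for ND6. CYTB was at 11391 CPM, COX1 at 62703, COX2 at 23409, COX3 at 28012, ATP6 at 10234 and ATP8 at 534. Its UQCR11 level of 56.3 CPM was the nuclear exception.

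Low AS control replicate 3, a numbered library, had a mitochondrial share of 15.8%. Its levels were 6694 CPM for ND1, 6436 for ND2, 2846 for ND3, 9755 for ND4, 914 for ND4L and 4866 for ND5. CYTB was at 13398 CPM, COX2 at 24447, COX3 at 27661 and ATP6 at 10556.

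High AS control replicate 3, also numbered, had a mitochondrial share of 14.4%, with ND4 at 8432 CPM, COX1 at 56832, COX2 at 23848, COX3 at 27902 and ATP6 at 9547. High AS chicory replicate 2, a numbered library as well, had ND1 at 5724 CPM, ND3 at 1829 and COX3 at 19662. In Low AS chicory replicate 6, NDUFA6 was at 15.8 CPM.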

How the results depend on the processing

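Over the alternatives that left out more than a single pig or changed a setting, 922 values kept their direction and their side of the threshold, 19 changed sign, 5 newly passed and 18 no longer passed. When each pig was left out in turn these numbers were 2234, 7, 4 and 18. Causes were not tested.

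None of the estimates that changed sign passed the threshold. With sow as a block, NDUFA4L2 was -0.15 in the AS comparison and 0.067 for library set, NDUFB5 had an androstenone slope of 0.022, COX15 was 0.038 for diet, and NDUFS1 and UQCRFS1 were 0.078 and 0.10 for library set. Within the numbered libraries, an alternative added after seeing the data, NDUFA10 was -0.61 and NDUFS6 0.090 in the AS comparison, the androstenone slopes of NDUFAF4 and NDUFB5 were 0.083 and 0.0060, and ND6 and COX5A were -0.70 and -0.11 for diet. Within the plain libraries NDUFA2 was 0.024 for diet. Leaving out Low AS chicory replicate 1 together with replicate 3 of High AS control gave ND6 -0.0053 for diet. For library set UQCRFS1 was 0.028 with no filter on low counts and 0.0079 with carcass weight as a covariate, and COX5A was -0.0056 without lane 7. Leaving out each pig gave ND6 -0.0058 to 0.66 for diet, UQCRFS1 -0.080 to 0.031 and COX5A -0.023 to 0.086 for library set.

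The correlation of COX8A with round in place of elongating spermatid markers was -0.021 in the plain and -0.10 in the numbered libraries, and with elongating spermatid markers in the plain libraries it was 0.51 without Low AS chicory replicate 1 (n = 22, permutation, adjusted p = 0.0412). For library set ND1, ND2, ND3, COX3 and NDUFA4 were among 11 members that no longer passed without lane 7, and COX4I1, NDUFA4 and NDUFAF7 among 12 with sow as a block.

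The labels give no replicate numbers to pair pigs by. The fit with sow as a block compares litter mates, 7 sows having pigs in both AS groups. COX10 had too few counts to test, and NDUFA4L2 had no more than 44 counts in any pig.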
